A study of Solanum lycopersicum with 28 samples.

Results

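The regions described here are stretches of the tomato genome that carried a peak of H3K27me2, dimethylation of lysine 27 of histone H3, but no peak of H3K27me3 or H3K9me2. They were selected by peak position: an H3K27me2 peak on chromosomes 1 to 12 was kept when it was at least 1000 bp long and shared 0 bp with every H3K27me3 and H3K9me2 peak. This left 20271 regions, or 18.3% of the 110771 H3K27me2 peaks of that length. Of the remaining peaks, 26294 touched H3K27me3 only (23.7%), 59973 touched H3K9me2 only (54.1%) and 4233 touched both (3.82%). Length and the contacts with H3K27me3 and H3K9me2 therefore chose the regions, and they are given as a description. The fold, p-value and q-value of H3K27me2 did not enter the rule, but they come from the same peak calls and are likewise only described. The other lists were not used in the choice.

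The material was leaf tissue of untreated wild-type tomato (Solanum lycopersicum) of cultivar M82, grown for 4 weeks at 24 °C with 16 h of light. Chromatin immunoprecipitation with sequencing (ChIP-seq), which recovers DNA bound to a chosen protein or modified histone, was performed for 26 histone modifications and RNA polymerase II (Pol2), and an Input library of chromatin without immunoprecipitation accompanied them. The labels give 1 library, replicate 1, for each target, and whether the lists of Pol2, H3K4me1, H3K9ac, H3K36me3 and H3K9me2 pool replicates is unknown. With 1 list per target, no difference between lists or groups of peaks could be tested, and the intervals given below are Wilson 95% intervals that cover counting error only. Lists were grouped by the classes of the study into 19 euchromatin targets (Pol2, 13 acetylations, H3K4me1, H3K4me2, H3K4me3, H3K23me3 and H3K36me3), facultative heterochromatin (H3K27me2 and H3K27me3) and constitutive heterochromatin (H3K9me2 with H3K14me1, H3K23me1, H3K27me1, H3K56me1 and H3K56me2).

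In plants, methyl groups on H3 lysine 27 are added by different enzymes. Polycomb repressive complexes deposit H3K27me3 on silent developmental genes, and H3K27me2 is an intermediate on the same path, whereas H3K27me1 in silent repeats is placed by the ATXR enzymes described in Arabidopsis. H3K9me2 marks transposons and pericentromeric repeats. On the active side, H3K4me3 and most acetylations sit near the starts of transcribed genes, and H3K4me1 and H3K36me3 lie over gene bodies.

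The H3K27me2 signal of the regions was low. Their median length was 1495 bp, with quartiles of 1196 and 2002 bp and a longest region of 7239 bp. The fold enrichment, the ratio of read pileup to local background, had a median of 1.71 and ran from 1.46 to 3.65. Solved from the deposited fold and p-value, the median pileup was about 5.45 reads and the median background about 2.67 reads. Both are rough, because the list holds averages over each peak. Only 11.4% of all H3K27me2 peaks solved to a whole number of reads. A q-value, the p-value adjusted for the number of tests, was under 0.05 in 84 regions (0.414%). The same limit was passed by 758 peaks touching H3K27me3 only (2.88%), by 4 touching H3K9me2 only (0.00667%) and by 23 touching both (0.543%). The unadjusted p-value was under 0.05 in 68.6% of the regions. In all, the regions covered 34.8 Mb, which is 4.34% of the 802 Mb of chromosome sequence and 9.24% of the 377 Mb outside H3K27me3 and H3K9me2 peaks.

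At the length limit, the 277 regions less than 10 bp above it had a median fold of 1.69, and the 300 excluded peaks at most 10 bp below it had 1.68. At the overlap limit, the 631 regions lying under 50 bp from an excluded mark had a median fold of 1.74, and the 690 peaks sharing 1 to 49 bp with one had 1.73. A further 58237 H3K27me2 peaks outside both marks were shorter than 1000 bp.

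H3K4me1 was the list by which the regions stood furthest from the pool of all other H3K27me2 peaks. The exceptions were the settings with only H3K27me2 peaks or only partner peaks with a q-value under 0.05. H3K4me1 covered 26.0% of the bases of the regions. The share was 13.1% in peaks touching H3K27me3 only, 0.880% in peaks touching H3K9me2 only and 4.15% in peaks touching both. The lead did not hold against each group alone. By ratio of covered bases, H3K36me3 stood further from peaks touching H3K27me3 only, with 22.6% against 6.39%. H3K9ac stood further from peaks touching H3K9me2 only, with 11.6% against 0.0611%. A list was said to touch a region when they shared at least 1 bp, and H3K4me1 touched 33.2% of the regions (95% interval 32.5 to 33.8) against 13.3% of all H3K27me2 peaks of 1000 bp or longer. Where it touched, it usually ran through: the median touched region was covered over 99.2% of its length. Relative to all other H3K27me2 peaks the log2 ratio of covered bases was 2.42, the largest of 25 lists. With H3K27me2 peaks under a q-value of 0.05 it was 0.57, below H3K27me1 at 1.32, and with partner peaks under that limit it was 2.45, below H3K36me3 at 2.98. The order held in each length class, with 31.8% of regions touched against 5.93% of other peaks under 1500 bp, and 36.4% against 11.7% at 2000 bp or longer. It held by position as well, because in the outer 10% of each chromosome end, here called the terminal zone, H3K4me1 covered 52.0% of the bases of the regions and 16.0% in peaks touching H3K27me3 only. In the central zone the corresponding values were 16.0% and 11%.

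The other methylated forms of lysine 4 differed from this pattern. H3K4me2 touched 37.8% of the regions against 30.2% of all peaks, and covered 25.5% of bases, below the 31.3% in peaks touching H3K27me3 only. H3K4me3 touched 19.9% against 14.8%, and its covered share of 12% likewise lay between the peaks touching H3K27me3 only (19.4%) and those touching H3K9me2 only (0.0844%). H3K4me1 and H3K23me3 were the 2 of 24 lists with a larger covered share in the regions than in each of the other 3 groups, and for H3K23me3 the values were close together (7.95% against 6.14% to 6.74%).

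**Figure D1:**
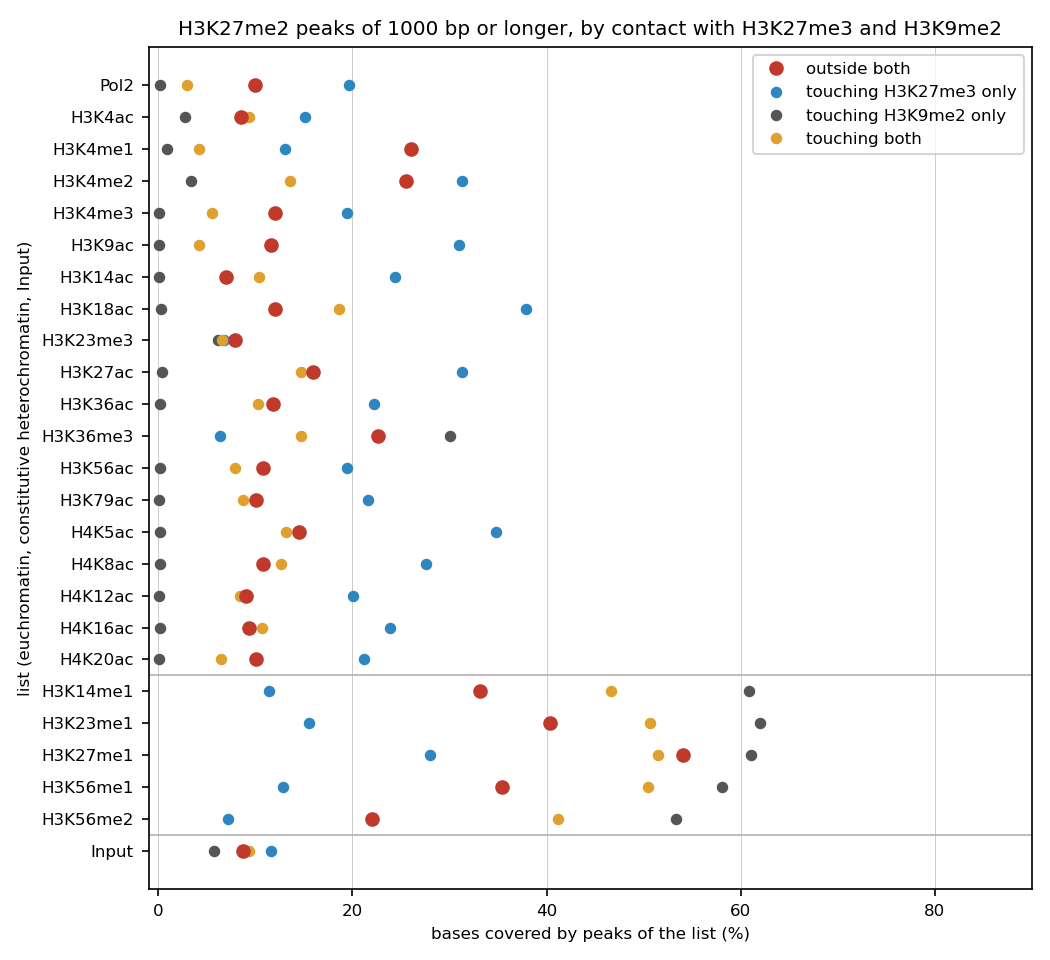
Percent of bases covered by peaks of each list (horizontal axis) in the 4 groups of H3K27me2 peaks of 1000 bp or longer, 1 library per list. For most euchromatin lists the regions outside both marks lie between the peaks touching H3K9me2 only and those touching H3K27me3 only, while for H3K4me1 they lie highest, at 26.0%.

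Pol2 and the acetylations were present on a minority of the regions. Pol2, the enzyme that transcribes protein-coding genes, touched 22.7% against 17.3% of all peaks, and its covered share was 10.0% against 19.6% in peaks touching H3K27me3 only. At least 1 of the 13 acetylations touched 48.8% of the regions and 46.1% of all peaks, which is near the background. That background mixes unlike groups, with 92.0% in peaks touching H3K27me3 only and 23.8% in peaks touching H3K9me2 only. H3K27ac, which occupies the same lysine as the chosen mark on other histone tails, touched 32.0% against 25.9% of all peaks. Among the acetylations of histone H3, the share touched was 32.8% for H3K4ac against 34.6% of all peaks, 21.2% for H3K9ac against 19.3%, 20.7% for H3K14ac against 21.4% and 28.5% for H3K18ac against 26.8%. Most of these values lie within a few points of the background, which was not matched for length. For the acetylations deeper in H3 it was 24.5% for H3K36ac against 20.2%, 22.2% for H3K56ac against 17.9% and 21.1% for H3K79ac against 18.5%. For histone H4 it was 25.6% for H4K5ac against 21.9%, 23.6% for H4K8ac against 21.8%, 21.3% for H4K12ac against 18.7%, 22.1% for H4K16ac against 20.5% and 21.0% for H4K20ac against 18.9%. The regions were shorter by median than each other group, and the share touched grew with length. Under 1500 bp, each of the 13 acetylations touched more of the regions than of the other peaks. There H3K4ac touched 25.3% against 21.2% and H3K9ac 19.6% against 13.8%. At 2000 bp or longer H3K4ac touched 48.0% against 47.7%, and H3K14ac was lower in the regions, at 25.8% against 28.2%. In peaks touching H3K27me3 only, every acetylation covered more bases than in the regions, with 31.0% against 11.6% for H3K9ac and 37.9% against 12% for H3K18ac. H3K36me3, a mark of transcribed gene bodies, touched 41.4% of the regions against 54.2% of all peaks, and H3K23me3 touched 36% against 38.9%. The H3K36me3 value rests on weak peaks, since 8.10% of that list passed a q-value of 0.05. Its log2 ratio of covered bases, regions over other H3K27me2 peaks, was 0.05 with all H3K36me3 peaks and 2.98 with those alone. Both lists also touched many peaks on H3K9me2, where H3K36me3 covered 30.1% of bases.

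The 5 constitutive lists other than H3K9me2 touched most of the regions, though less often than all H3K27me2 peaks. H3K27me1, the monomethyl form of the same lysine, touched 74.4% against 80.4%. H3K14me1 touched 63.1% against 74.3%, H3K23me1 69.0% against 76.8%, H3K56me1 63.8% against 75.1% and H3K56me2 62.3% against 76.7%. This background was not matched for length and mixes unlike groups. Each of these lists touched more of the regions than of peaks touching H3K27me3 only, and fewer than of peaks touching H3K9me2 only. For H3K56me2 the shares in those groups were 35.6% and 98.1%. At 2000 bp or longer, H3K23me1 touched 83.0% of the regions against 81.4% of the other peaks. The other constitutive lists remained lower in the regions there. At least 1 of the 5 touched 18142 regions, or 89.5% (95% interval 89.1 to 89.9), against 91.1% of all peaks. These lists hold weak peaks, of which 0.00496% to 0.0125% passed a q-value of 0.05, and with such peaks alone the share of regions touched fell to 0.00493%. By bases, H3K27me1 covered 54.0% of the regions, close to the 61.1% in peaks touching H3K9me2 only and above the 28.0% in peaks touching H3K27me3 only. H3K56me2 covered 22.0% against 53.3% and 7.18%. In the pool of all other H3K27me2 peaks H3K27me1 covered 50.3%, less than in the regions, and this order held on 12 of 12 chromosomes. Under 1500 bp it did not hold, with 49.3% in the regions against 49.8%. The other constitutive lists covered less of the regions than of that pool. The Input list touched 65.8% of the regions and 66.6% of all peaks, and covered 8.77% of the bases of the regions.

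A comparison with the remaining sequence outside H3K27me3 and H3K9me2 asks what the regions carry beyond what that sequence carries anyway. Input peaks were themselves denser in the regions, with a log2 ratio of covered bases of 0.37 that was positive on 12 of 12 chromosomes, and the part of this in the other ratios was not tested. The 9 largest ratios were those of H3K4me2 (0.82), H3K4me3 (0.81), H3K56ac (0.79), H3K36ac (0.72), H3K23me1 (0.71), H3K14me1 (0.69), H3K27ac (0.68), H4K20ac (0.68) and H3K27me1 (0.66), each positive on 12 of 12 chromosomes. H3K79ac (0.56), H3K23me3 (0.53), H3K56me1 (0.53) and H3K4ac (0.51) followed, also positive on all 12. H3K4me1, at 0.44, was close to the Input value, so its distance from other H3K27me2 peaks was not matched by a like distance from the surrounding sequence. Pol2 covered 10.0% of the regions and 15.9% of that sequence, a log2 ratio of -0.66 with a lower share in the regions on each of the 12 chromosomes. H3K14ac (-0.26) was likewise lower on all 12, and H3K9ac (-0.16) was lower on the chromosomes other than 3 of them.

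**Figure D2:**
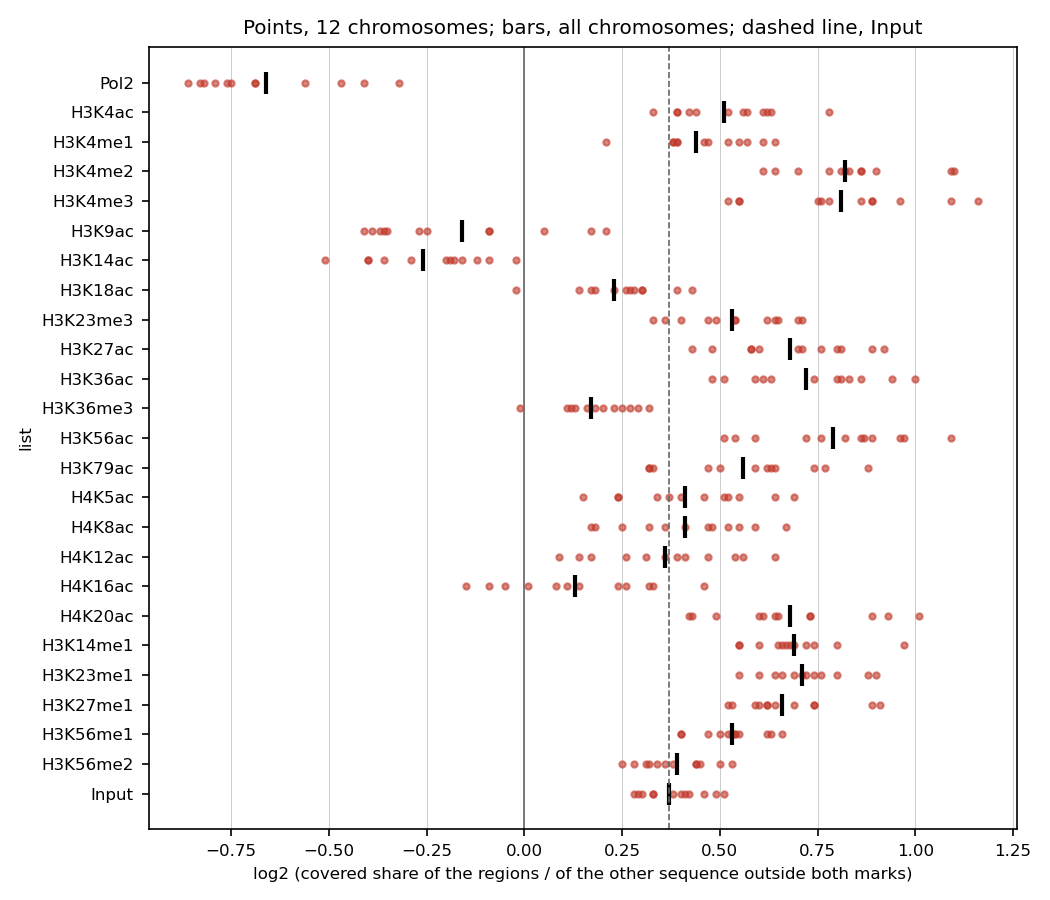
Log2 ratio of the share of bases covered in the regions to that in the other sequence outside H3K27me3 and H3K9me2, per list. Points are the 12 chromosomes, black bars all chromosomes together, and the dashed line the Input value of 0.37; Pol2 lies to the left of 0 on every chromosome.

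The regions were not of 1 kind. The number of euchromatin lists touching a region had a maximum at 0 and 1 and a second, smaller one at 18. No euchromatin list touched 3873 regions (19.1%), against 10.5% of all peaks. Another 8818 (43.5%) were touched by 1 to 3 lists against 59.3% of all peaks, 4169 (20.6%) by 4 to 13 against 16.5%, and 3411 (16.8%) by 14 to 19 against 13.7%. All 19 touched 584 regions (2.88%) against 1.35% of all peaks. All peaks also showed a second rise, at 16 lists. Contact with the constitutive lists went the other way: all 5 touched 51.8% of the regions with no euchromatin list, 56.4% of those with 1 to 3, 18.2% of those with 4 to 13 and 12.1% of those with 14 to 19. The higher share without any euchromatin list rests on 3 lists of short or weak peaks. When H3K4ac, H3K23me3 and H3K36me3 were left out, a choice made after seeing the data, it was 46.4% in the regions against 56.3% of all peaks, so that the order turned. With all lists the share also varied with length, at 23.9% against 15.5% of the other peaks under 1500 bp and 10.3% against 3.29% for 2000 bp or longer. Both classes of list touched 14292 regions (70.5%) against 80.7% of all peaks, euchromatin lists alone 2106 (10.4%) against 8.84%, and constitutive lists alone 3850 (19%) against 10.4%. Only 23 regions (0.113%) were touched by none of the 24 other targets, against 0.0524% of all peaks.

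**Figure D3:**
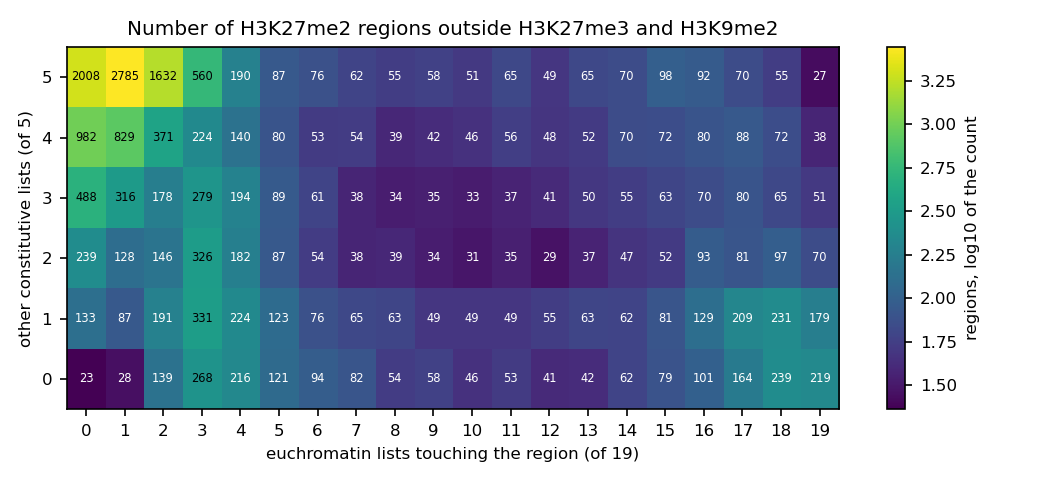
Number of regions by how many of the 19 euchromatin lists (horizontal axis) and of the 5 other constitutive lists (vertical axis) touched them; colour is the log10 of the count printed in each cell. The largest cells are at the upper left (2785 regions with 1 euchromatin list and all 5 constitutive lists), and a second group lies at the lower right.

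Within the regions, contact with H3K4me1 went together with contact with most other euchromatin lists. Of the 6726 regions with H3K4me1, 85.0% also had H3K4me2, against 14.3% of the 13545 without it. H3K36me3 was found on 74.4% against 25.1%, and Pol2 on 42.6% against 12.8%. Marks of gene starts did likewise, with H3K4me3 on 44.9% against 7.47% and H3K27ac on 61.0% against 17.6%, whereas H3K23me3 did not (35.3% against 36.4%). H3K27me1 showed the opposite, with 42.6% against 90.2%. In the terminal zone alone, H3K36me3 touched 73.8% of regions with H3K4me1 and 19.2% of those without, and H3K27me1 touched 41.8% and 69.9%. Pol2 did not follow there, at 44.2% with H3K4me1 and 45.7% without, and its contrast was seen in the central zone (40.5% against 7.17%). H3K4me1 in the absence of any acetylation marked 2075 regions (10.2%), against 2.93% of all peaks.

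Distance to the excluded marks separated the regions into groups of nearly equal size. H3K27me3 was the nearer mark for 10238 regions (50.5%) and H3K9me2 for 10033 (49.5%), with median distances to the nearer mark of 1351 and 967 bp. The lengths and folds of these groups were alike, with medians of 1492 and 1497 bp and of 1.71 and 1.72. Their other marks were not. H3K4me1 touched 57.1% of the regions nearer to H3K27me3 and 8.77% of those nearer to H3K9me2. Pol2 touched 39.9% against 5.16%, and H3K9ac 37.6% against 4.49%. H3K27me1, in contrast, touched 57.1% against 92.0%, and H3K56me2 41.0% against 84.1%. The share without any euchromatin list was 9.45% against 29.0%. Input peaks touched 69.0% and 62.5%.

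Position along the chromosome moved with this split, as 48.0% of the regions nearer to H3K27me3 and 8.07% of those nearer to H3K9me2 lay in the terminal zone. The contrast was also present within each zone. In the terminal zone H3K4me1 covered 57.0% of bases in regions nearer to H3K27me3 and 22.8% in those nearer to H3K9me2, and in the central zone 34.0% and 5.57%. H3K27me1 covered 32.9% and 61.5% in the terminal zone, and 47.8% and 67.9% in the central zone.

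**Figure D4:**
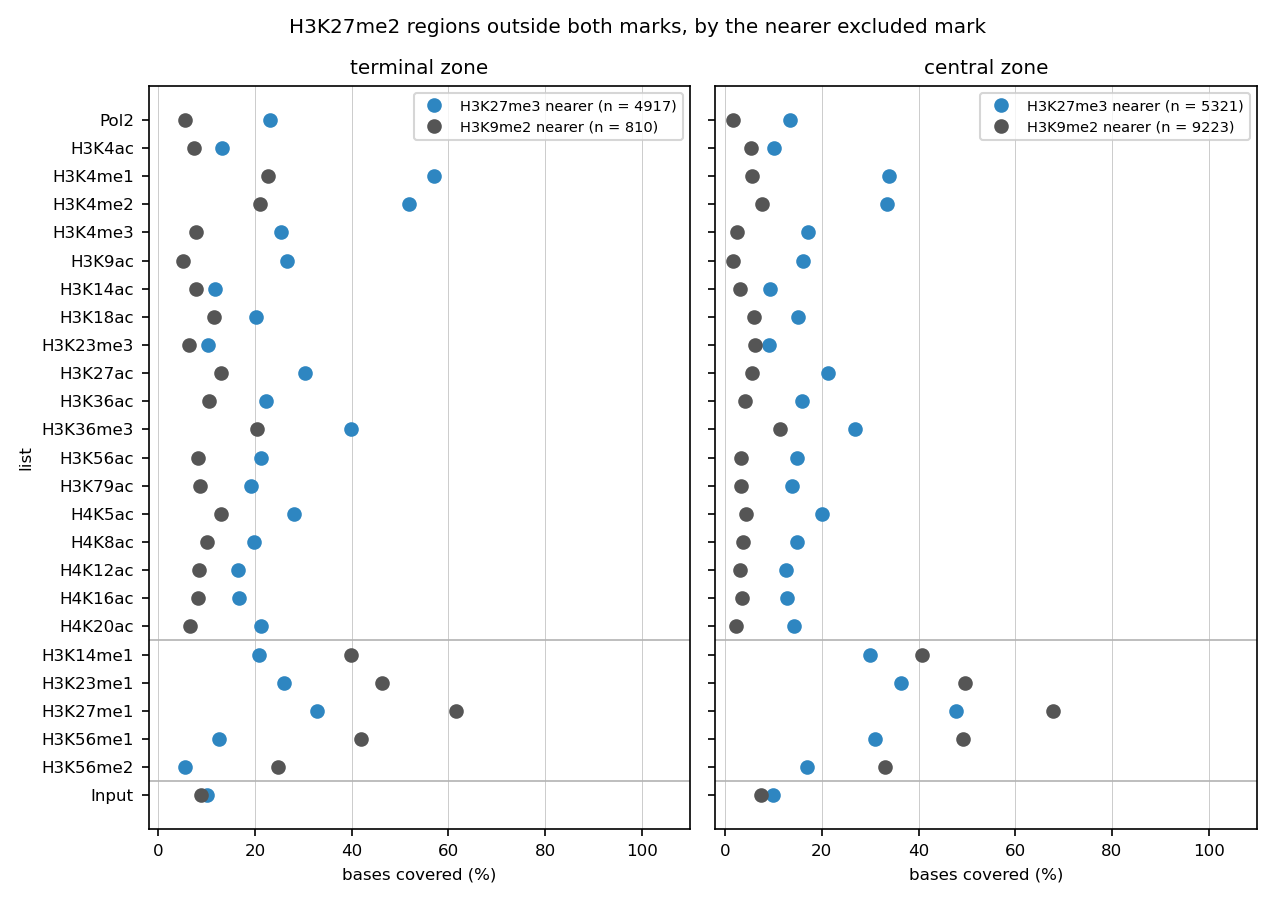
Percent of bases of the regions covered by each list, for regions nearer to an H3K27me3 peak (blue) or to an H3K9me2 peak (grey), in the terminal zone (left) and the central zone (right). In both zones every euchromatin list covered more of the regions nearer to H3K27me3, and each of the 5 constitutive lists more of those nearer to H3K9me2.

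Regions remote from both marks were few. Only 209 (1.03%) lay more than 10 kb from any H3K27me3 or H3K9me2 peak. H3K4me1 touched 70.3% of them against 33.2% of all regions, with 63.5% of their bases covered. H3K36me3 and H3K23me1 each touched 72.7% of the 209, against 41.4% and 69.0% of all regions. At least 1 of the 5 other constitutive lists touched 87.1% against 89.5%. H3K4me2 touched 61.7% of the 209 and H3K9ac 13.4%, against 37.8% and 21.2% of all regions. At the other extreme, 461 regions (2.27%) had both marks within 1000 bp.

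Some lists changed at the borders of the regions and others did not. H3K4me2 covered 27.3% of the middle 20% of a region and 15.2% of the first 1 kb beside it, and H3K27ac 16.7% and 9.45%. H3K27me1 fell from 55.4% to 41.6% and to 35.5% at 2 to 3 kb. H3K4me1 declined slowly instead, from 27.2% in the middle to 22.1% beside the region and 16.9% at 9 to 10 kb. Pol2 was lower inside, with 9.07% in the middle against 14% beside the region. Input covered 8.93% in the middle and 6.79% beside it. H3K27me3 and H3K9me2 are at 0 inside by the rule. H3K27me3 covered 13.6% at 2 to 3 kb and 12% at 9 to 10 kb, and H3K9me2 21.3% and 32.5%.

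**Figure D5:**
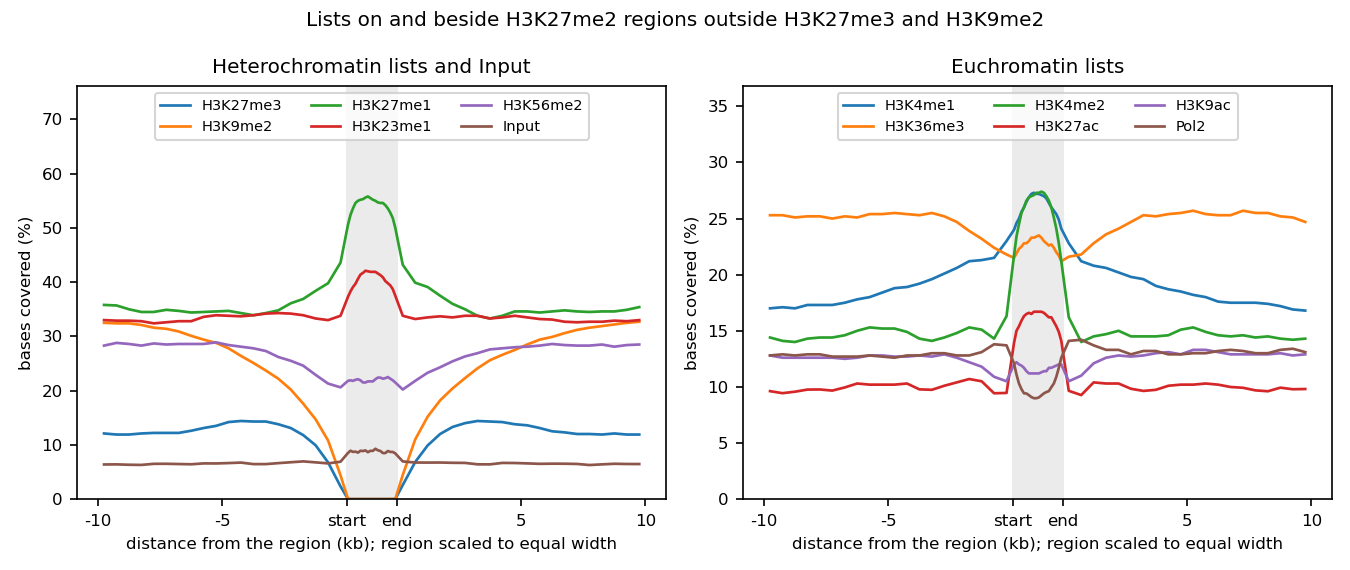
Percent of bases covered by 6 heterochromatin lists or Input (left) and 6 euchromatin lists (right) over the regions, scaled to equal width (grey band), and 10 kb on each side. H3K27me1, H3K4me2 and H3K27ac rise at the borders, H3K4me1 declines slowly outward, and Pol2 dips inside the band.

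Along the chromosomes the regions were spread much like the sequence outside both marks. Their centre lay in the terminal zone in 28.3% of cases, against 17.9% of all peaks, while 28.9% of the sequence outside both marks was terminal. Over whole chromosomes, their density per Mb of sequence outside both marks ranged from 47.2 on chromosome 6 to 60.3 on chromosome 1. Terminal and central regions differed in their marks: no euchromatin list touched 6.41% of the 5727 terminal regions and 24.1% of the 14544 central ones, and H3K27me1 covered 37.1% and 60.6% of bases. The share of regions touched by H3K4me1 was lowest on chromosome 10 (23.8%) and highest on chromosome 6 (44.8%). Of all regions, 9501 (46.9%) stood alone and 1431 (7.06%) were in runs of 5 or more, a run being consecutive regions with no other H3K27me2 peak of 1000 bp or longer between them. The regions were 18.3% of the peaks of that length. No expected count was computed, so whether the regions were scattered or clustered was not tested.

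The strength of H3K27me2 moved with other marks. From the 25% of regions with the lowest fold (1.46 to 1.63) to the 25% with the highest (1.81 to 3.65), the bases covered by H3K4me3 went from 5.89% to 26.0% and those covered by H3K27me1 from 42.7% to 60%. H3K36me3 went down from 33.2% to 17.4%, and H3K4me1 from 36% to 23.2%. Input coverage also went up, from 7.59% to 11.3%, and its part in these values was not tested. At the top of this range, the 84 regions with a q-value under 0.05 had a median fold of 2.56 and a median of 16 euchromatin lists. H3K4me2, H3K4me3 and H4K20ac touched 84 of 84, and H3K27ac and Input 83 each. The 785 other H3K27me2 peaks past that limit were similar in this respect, with H3K4me2 on 785, H3K4me3 on 783 and Input on 747. H3K27me1 touched 83.3% of the 84 and 50.4% of the 785.

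Single regions illustrate these kinds, with coordinates of the M82 genome version 1. The longest was on chromosome 2 from 13538712 to 13545950 (7239 bp, fold 1.62), 2940 bp from H3K9me2. All 5 other constitutive lists touched it, H3K27me1 over 64.2% of its length, and H3K23me3 and H3K36me3 were its 2 euchromatin lists. The next longest, on chromosome 4 from 49276179 to 49282965 and on chromosome 1 from 66047976 to 66054757, also had all 5 constitutive lists and 2 euchromatin lists each. These 3 were thus the longest with all 5 constitutive lists too. The highest fold, 3.65, belonged to a region of 1104 bp on chromosome 10 from 755105 to 756208, which H3K4me2, H3K4me3 and H3K27me1 covered in full. Folds of 3.41 and 3.29 followed on chromosome 12 from 3302287 to 3303544 and on chromosome 11 from 4627685 to 4629115, both fully covered by H3K4me3.

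Among the regions with all 19 euchromatin lists, the longest was on chromosome 3 from 65091072 to 65097381 (6310 bp, fold 1.92), 1447 bp from H3K27me3, with Pol2 over 58.7% of its length. The next were on chromosome 10 from 61462272 to 61467985 and on chromosome 4 from 7428678 to 7434093, and H3K4me1 covered 45.0% and 73.4% of them. Of the 23 regions without any other target, the longest was on chromosome 3 from 49810157 to 49812087 (1931 bp, fold 1.67), 183 bp from H3K27me3. The others named by length were on chromosome 6 from 41964855 to 41966394 and on chromosome 3 from 7414099 to 7415625. All 3 had folds between 1.66 and 1.68, below the median of the regions.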

How the data were processed

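Per the labels, 75-bp reads came from 1 library per target and an Input. The authors trimmed with Trimmomatic 0.38, aligned with Bowtie2 2.3.5 to M82 version 1 and called peaks with MACS2 2.2.7.1. The paper gives an unadjusted p-value limit of 0.05 for these calls. Not all listed p-values met it: 68.6% of the regions lay under 0.05, and their lowest −log10 p-value was 1.03. For its chromatin states it kept only peaks above further limits on pileup and fold, which were not applied to the main results here. The deposited lists (17 narrow, 11 broad) give a fold ratio of pileup to background and the −log10 of a p-value and q-value, averaged over the peak in broad lists. Library depth is unknown. The sources do not say which lists were called against Input, nor whether the 5 target lists lacking a replicate tag pool replicates.

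Overlaps (at least 1 bp), covered bases, distances and Wilson intervals were computed in Python 3.11.15 with numpy 2.4.6 and pandas 2.3.3, and tested on simulated data. Chromosome length was the largest peak end. Regions named are the 3 longest, highest in fold, richest in euchromatin lists, longest without another target and longest with all 5 constitutive lists. The regions and lists were chosen with earlier results of these data known. Alternatives varied length, fold, p, q, distance, Input contact, partner strength and zone. No genome of this build was used, so sequences and genes are not given.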

Additional observations from a re-analysis of the deposited data

Results flagged for a closer look

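Sequences outside the 12 chromosomes entered no comparison. On unplaced sequences, 6 of 73 H3K27me2 peaks of 1000 bp or longer lay outside H3K27me3 and H3K9me2, covering 11648 bases with a median fold of 1.69, and shorter Input peaks touched 3 of the 6. They drew attention as signal in data that the report does not use. The Input list had 0 peaks of that length there, but its peaks are short (median 118 bp), so this count is no measure of background, and the fold lay below the 1.71 of the regions.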

How the results depend on the processing

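No paired analysis was possible because each target had 1 library. The number of regions was 44425 at a minimum of 500 bp, 5090 at 2000 bp, 84 at an H3K27me2 q-value under 0.05, 11109 at 1000 bp or more from both marks, 32996 when only H3K27me3 and H3K9me2 peaks with a fold above 1.5 excluded a region, and 6939 without Input contact. In these 6 settings, in that order, the share without a euchromatin list was 25.6%, 10.3%, 0%, 17.5%, 15.2% and 26.5%, and the share with a constitutive list 82.6%, 95.8%, 90.5%, 87.7%, 85.5% and 90.4%. The terminal share was 29.4%, 41.7%, 33.1%, 30.7% and 26.5% in the same order without the 2000 bp setting. At an H3K27me2 p-value under 0.05 the 3 shares were 17.7%, 91.5% and 27.1%. Partner lists required to cover 50% of a region gave 52.7% without euchromatin and 76.9% with a constitutive list, partner folds above 1.5 gave 22.7% and 84.6%, and partner q-values under 0.05 gave 41.8% and 0.00493%. Lists with a replicate tag gave 28.0% without euchromatin, the omission of H3K4ac, H3K23me3 and H3K36me3 (chosen after seeing the data) gave 46.4% against 56.3% of all peaks, where the main values were 19.1% and 10.5%, and a terminal zone of 20% held 51.3%.

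Of 269 alternative log2 ratios of covered bases (regions over other H3K27me2 peaks), 217 kept their sign within 0.5, 22 moved further and 30 changed sign. The cause of these changes was not tested. Input contact was dropped, as planned, from the regions alone, while the other peaks, of which 66.8% touched Input, were all kept. In this setting 13 ratios turned negative: H3K4ac (-0.76), H3K4me3 (-0.61), H3K9ac (-0.53), H3K23me3 (-0.26), H3K27ac (-0.77), H3K36ac (-0.66), H3K56ac (-0.69), H3K79ac (-0.87), H4K5ac (-0.76), H4K8ac (-1.08), H4K12ac (-0.98), H4K16ac (-1.11) and H4K20ac (-1.0). Dropping Input contact from both sides was added after that result had been seen. It changed 3 signs, H3K14ac (0.04), H3K18ac (0.23) and H3K36me3 (-0.42). The q-value limit turned Pol2 (-0.07), H3K4ac (-0.08), H4K8ac (-0.06), H4K12ac (-0.0037), H4K16ac (-0.15), Input (-0.11), H3K14me1 (0.30) and H3K23me1 (0.19). The fold limit on the excluding marks turned H3K14ac (0.41), H3K18ac (0.43), H3K27me1 (-0.06) and H3K36me3 (-0.34), the p-value limit H3K36me3 (-0.13), and the distance of 1000 bp H3K27me1 (-0.03). The H3K4me1 ratio was positive in every setting run, between 0.57 at the q-value limit and 3.03 with Input contact dropped from both sides, but was not the largest in size at the q-value limits on H3K27me2 (6th of 25 lists) and on partners (3rd of 21), where H3K36me3 moved to 2.98. Low pileup limits all H3K27me2 values.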
